A study of Mus musculus with 24 samples.

Results

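This report describes 43 lysosomal genes in the mouse kidney after myocardial infarction (MI), with prosaposin (Psap) among them. They were chosen by name, as genes for the enzymes, activator proteins, membrane proteins and regulators of the lysosome, and the set was drawn up around Psap because of its level at 28d in these kidneys. All 43 were found among the 56941 genes of the deposited count table, and all 43 had enough counts to be tested, together 12780 genes. The comparison asks whether the small difference in Psap at 28d post-MI went along with a difference across lysosomal genes. Psap itself was singled out by the study from these same kidneys at 28d, so its level there is given as a description and is no independent evidence.

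The kidneys came from adult male wild-type C57BL/6J mice. In the MI groups the left anterior descending coronary artery was ligated permanently under isoflurane after buprenorphine, and sham mice had the same operation without the ligation. Controls for both times were the same sham kidneys, taken 5d after the operation, so at 28d the time since surgery and the age of the mice cannot be told apart from the infarct. Counts of 22 kidneys could be used, 8 sham, 8 at 5d and 6 at 28d post-MI, each from 1 mouse. Sequencing was by MACE (Massive Analysis of cDNA Ends), in which only the 3′ end of an mRNA is read and molecules carry identifiers that remove PCR copies. Levels are therefore given as CPM, that is, counts scaled to a common library size, without division by gene length. Each kidney had between 2280618 and 3786275 counts. Summed CPM of adrenal cortex genes was far above that of the other kidneys in sham replicate 2 (734 CPM), sham replicate 6 (552 CPM) and 5d replicate 5 (67.0 CPM), against at most 3.96 CPM elsewhere. The numbers of lysosomal genes at 28d and 5d and some values of single genes are also given without these kidneys.

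Lysosomes are acidic organelles in which proteins, glycans, glycosaminoglycans and lipids taken up by endocytosis or delivered by autophagy are broken down. In the kidney they are abundant in the proximal tubule, which reabsorbs filtered proteins and degrades them. Most lysosomal hydrolases are tagged with mannose 6-phosphate in the Golgi and carried to the lysosome, and many of their genes share a promoter motif, the CLEAR element, to which the transcription factor TFEB binds. Prosaposin is cut in the lysosome into saposins, small activator proteins that present sphingolipids to their hydrolases, and it is also secreted.

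The core letters of that motif were looked for in promoters as a feature that lysosomal genes may share. The motif is itself known from lysosomal genes, so a higher share among the 43 is no independent evidence about the set. RefSeq (GRCm38.p6) promoter windows, from 250 bases before to 50 bases after the start of a gene, were at hand for 38 of the 43 genes, and not for Npc1, Asah1, Ctsb, Ctsh and Galns. The palindrome TCACGTGA, which reads the same on both strands, was present in 5 of the 38 (13.2%) and in 1.12% of all 27025 genes with a window. The shorter TCACGTG, searched on both strands as TCACGTG or CACGTGA and contained in the palindrome, was present in 12 (31.6%) against 4.29% of all genes, and the still shorter CACGTG in 14 (36.8%) against 8.09%. The palindrome sites follow here with the motif in capitals and up to 12 bases on either side, together with the single TCACGTG of Glb1, read 5′ to 3′ on the strand of the gene.
Ctsa, chr2:164833748-164833779: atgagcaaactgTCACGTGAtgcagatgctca
Ctsa, chr2:164833765-164833796: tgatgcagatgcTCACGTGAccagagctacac
Cln3, chr7:126583339-126583370: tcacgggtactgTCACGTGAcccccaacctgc
Ctsd, chr7:142387907-142387938: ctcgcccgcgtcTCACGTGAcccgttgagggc
Mcoln1, chr8:3500461-3500492: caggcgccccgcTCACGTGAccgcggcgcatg
Gla, chrX:134601214-134601245: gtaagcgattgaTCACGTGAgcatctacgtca
Gla, chrX:134601181-134601212: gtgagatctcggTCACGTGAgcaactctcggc
Glb1, chr9:114401017-114401047: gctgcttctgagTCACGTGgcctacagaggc

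Psap had none of these letters in either of its windows. The window at the first base of the annotated gene (chr10:60277378-60277677, plus strand, GC content of 62%) is shown for comparison with the sites above.
Psap: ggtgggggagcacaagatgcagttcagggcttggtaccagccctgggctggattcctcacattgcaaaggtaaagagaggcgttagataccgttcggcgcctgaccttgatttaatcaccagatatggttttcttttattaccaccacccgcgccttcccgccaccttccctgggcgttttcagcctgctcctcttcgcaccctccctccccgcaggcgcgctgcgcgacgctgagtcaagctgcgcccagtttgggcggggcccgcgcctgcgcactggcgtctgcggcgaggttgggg
A match describes letters in a window and is not a measured binding site. The 12 genes with TCACGTG had a median log2 fold change of −0.02 at 28d post-MI, with 5 of them higher than in sham. For the 26 with a window that lacked it, among them Psap, the median was 0.03, with 16 higher.

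For 39 of the 43 genes the log2 fold change at 28d post-MI against sham lay between −0.25 and 0.25. Of all 12780 tested genes 10960 did so. None of the 43 passed an adjusted p-value of 0.05 at 28d, where 0.0235% of all genes did so. The test was edgeR's quasi-likelihood test with Benjamini-Hochberg adjustment over all tested genes. At 5d post-MI and between 28d and 5d none passed either, where 0.0704% and 0.415% of all genes did. With shares this low, the absence of a call says little about 43 genes. At an unadjusted p under 0.05 there were 9 of the 43 genes at 28d (20.9%), 7 higher and 2 lower. Of all genes 8.68% reached that p, 4.45% higher and 4.23% lower. Without Psap there were 8 of 42 (19%), 6 higher and 2 lower. Without the 3 kidneys with adrenal cortex genes there were 2 of the 43, both higher. All genes at that p then numbered 878, against 1109 with all kidneys. At 5d, with all kidneys, there were 5 (11.6%), 4 higher and 1 lower, against 7.9% of all genes (3.92% and 3.97%). Between 28d and 5d there were 7 (16.3%), 4 higher and 3 lower, against 9.05% (5.03% and 4.01%). DESeq2 called none of the 43 in any of these comparisons, and limma's voom none. Of all genes DESeq2 called 30 at 28d, 35 at 5d and 93 between the times, and voom 5, 5 and 61.

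The median log2 fold change of the 43 genes was 0.03 at 28d, with 25 genes higher and 18 lower, where the median of all genes was −0.0012 and 49.6% of them were higher. Scaled to total counts without TMM factors, which moved the median of all genes to −0.04, 17 of the 43 genes were higher and 26 lower, and their own median was −0.01. At 5d the median was 0.02, again with 25 genes higher and 18 lower. Between 28d and 5d it was −0.0079, with 21 higher and 22 lower, and 17 and 26 when scaled to total counts. For 39 of the 43 genes at 28d, and for 41 at 5d, the whole 95% interval of the log2 fold change lay between −0.5 and 0.5. Of all 12780 tested genes, 9049 did so at 28d and 9682 at 5d. These limits are wider than the Psap difference at 28d (0.13), so these numbers of genes cannot speak to a shift of that size. The single intervals at 28d differed in this. Those of some genes ended below 0.13, as for Lamp2 (upper end 0.073) and Ctsb (0.062). Those of others reached above it, as for Cd63 (0.16) and Lipa (0.25). No gene had levels in one group that lay entirely above or below those of another, where 0.258% of all genes did so at 28d, 0.0548% at 5d and 0.344% between 28d and 5d.

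**Figure D1:**
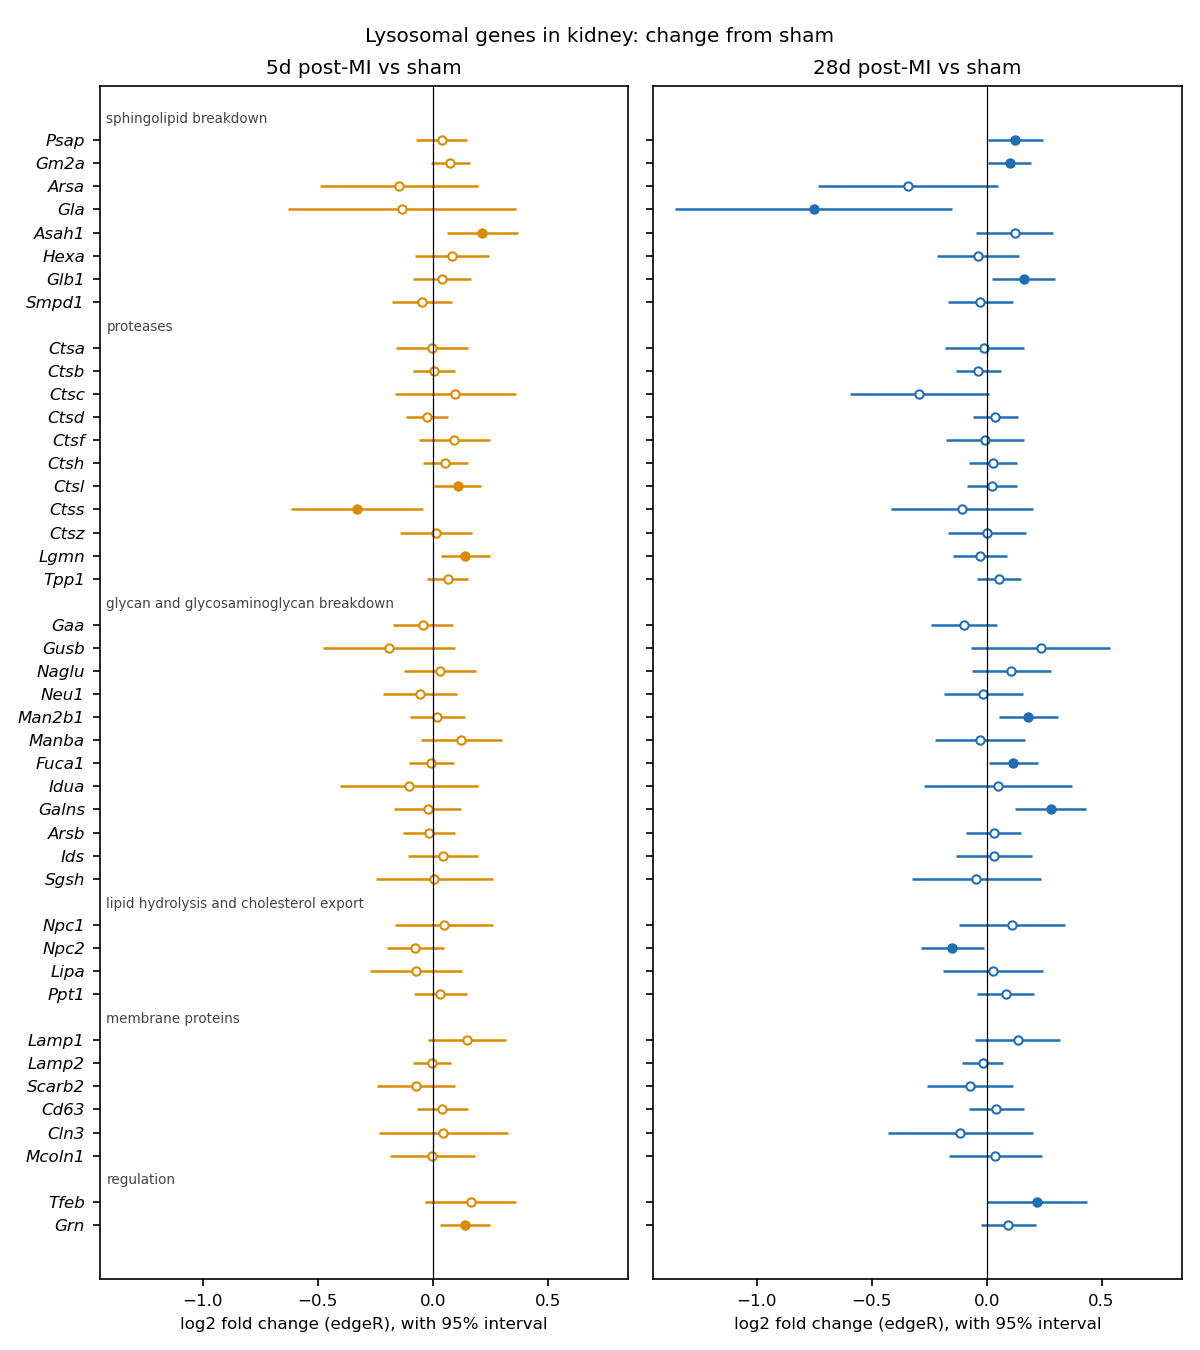
Log2 fold change from sham at 5d (left) and 28d (right) post-MI for each of the 43 lysosomal genes, by role, where points are edgeR estimates, bars are 95% intervals and filled points have an unadjusted p under 0.05. The filled points number 5 at 5d and 9 at 28d, and Gla, the gene with the fewest counts, has the widest interval.

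Taken as a sum, the 43 genes made up between 0.816% and 0.923% of the normalized counts of a kidney. The sum was 8665 ± 342 CPM (SD) in the 8 sham kidneys, 8858 ± 212 CPM in the 8 kidneys at 5d and 8924 ± 208 CPM in the 6 at 28d, 1.03 times the sham mean at 28d. Scaled to total counts without TMM factors, the sum at 28d was 1.002 times the sham mean. Sums by role were not computed with that scaling. Sham kidneys ranged from 8157 to 9226 CPM and kidneys at 28d from 8656 to 9228 CPM, so most of the 28d range lay inside that of sham. By role, the sum of the sphingolipid genes at 28d was 1.08 times the sham mean, that of the glycan and glycosaminoglycan enzymes 1.05 times, the membrane proteins 1.02 times, the proteases 1.002 times and the lipid and cholesterol genes 0.993 times. Psap supplied 707 of the 1552 CPM of the sphingolipid genes in sham, and without it their sum at 28d was 1.06 times the sham mean. The regulators Tfeb and Grn together were at 1.08 times the sham mean at 28d and 1.11 times at 5d. Sums follow their most abundant genes, and Cd63 alone supplied 1946 of the 8665 CPM in sham kidneys.

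**Figure D2:**
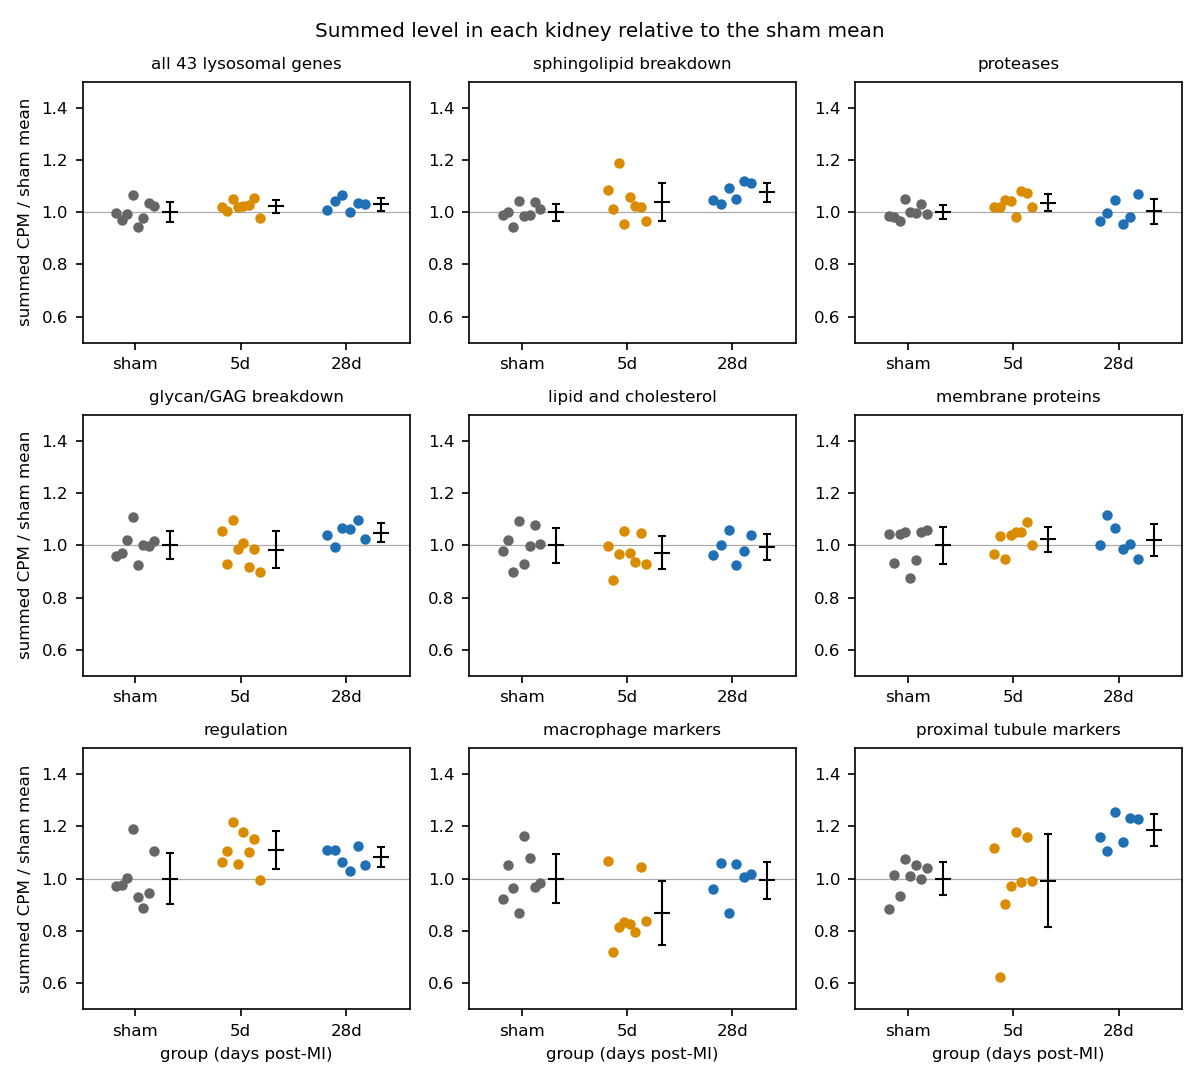
Summed CPM of all 43 lysosomal genes, of each role and of macrophage and proximal tubule marker genes in each kidney, divided by the mean of the sham kidneys, where points are kidneys and the bars beside them show mean and SD. The sum of all 43 genes stays close to the sham mean in all groups (1.02 times at 5d, 1.03 times at 28d), the macrophage markers are at 0.867 times at 5d and the proximal tubule markers at 1.19 times at 28d. Most of the proximal tubule sum comes from 1 gene, Kap.

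Markers of cell types were set beside these values. Summed proximal tubule markers were 57262 ± 3583 CPM in sham kidneys (n = 8) and 67917 ± 3446 CPM at 28d (n = 6), with no overlap between the groups, and Kap, an abundant proximal tubule gene, made up most of both sums (48618 and 58960 CPM). Of 9 tested proximal tubule markers, 8 had a higher mean at 28d (49.6% of all genes did), 2 of them at an unadjusted p under 0.05, and 1 was lower at that p (8.68% of all genes in either direction). Summed macrophage markers were 178 ± 16.8 CPM in sham, 154 ± 21.8 CPM at 5d and 176 ± 12.7 CPM at 28d. Summed white adipocyte markers were 0.482 times and brown adipocyte markers 0.230 times the sham mean at 28d, and red blood cell markers were 2.80 times the sham mean at 5d. The part of these differences in the lysosomal values was not tested, and in whole kidney RNA, fewer cells of a type and less RNA per cell cannot be told apart.

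Among the sphingolipid genes other than Psap, 2 of 7 were higher and 1 lower at 28d at an unadjusted p under 0.05, where 8.68% of all genes reached that p. Psap (ENSMUSG00000004207, chr10:60277627-60302597 in GENCODE M21) was among the more abundant genes of the kidney, at rank 108 of the tested genes. In sham kidneys its lowest, median and highest levels were 678, 698 and 742 CPM. At 5d they were 613, 716 and 920 CPM, and at 28d 713, 763 and 828 CPM. The sham values lay close together, those at 5d spread well beyond them on either side, and 5 of 6 kidneys at 28d were above every sham kidney. Means were 707 ± 21.4 (SD), 726 ± 98.1 and 771 ± 41.0 CPM. By edgeR the log2 fold change at 28d was 0.13 (SE 0.06, 95% interval 0.0039 to 0.25, adjusted p = 0.559). Without the 3 kidneys with adrenal cortex genes it was 0.12 (adjusted p = 0.758). The log2 fold change was 0.04 (SE 0.06, adjusted p = 0.922) at 5d and between 28d and 5d 0.09 (SE 0.06, adjusted p = 0.733). The study called Psap significantly higher at 28d, by a modest amount, with 7 kidneys at that time. DESeq2 gave 0.13 at 28d here (adjusted p = 0.497), also a small rise. The call itself was not reproduced with 6 kidneys at 28d and all 3 groups in 1 fit. The edgeR fit of only the sham and 28d kidneys gave 0.12 (adjusted p = 0.302). The spread at 5d came from both ends, with replicate 3 the highest (920 CPM) and replicate 9 the lowest (613 CPM), and without replicate 3 the log2 fold change at 5d was −0.02.

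Gm2a, the activator protein that presents GM2 ganglioside to hexosaminidase, stood at 481 ± 24.4 CPM in sham, 508 ± 24.5 at 5d and 516 ± 26.0 at 28d. The lowest, median and highest values of Glb1, lysosomal β-galactosidase, were 142, 149 and 166 CPM in sham, 118, 167 and 173 CPM at 5d and 152, 172.5 and 178 CPM at 28d. Its kidneys at 5d spanned a wider range than either other group, and 5 of 6 at 28d lay above every sham kidney. Log2 fold changes at 28d were 0.10 (SE 0.05, adjusted p = 0.540) for Gm2a and 0.16 (SE 0.07, adjusted p = 0.490) for Glb1.

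Gla, α-galactosidase A, which removes galactose from globotriaosylceramide, went the other way. Its lowest, median and highest values were 2.37, 4.09 and 8.34 CPM in sham, 1.53, 4.26 and 5.29 CPM at 5d and 1.99, 2.56 and 3.14 CPM at 28d. It had only 241 counts over all 22 kidneys, and all 6 kidneys at 28d were below the sham mean, 2 of them outside the sham range. On the log2 scale the difference at 28d was −0.75 (SE 0.30, adjusted p = 0.448), and −0.58 without the 3 kidneys with adrenal cortex genes, of which sham replicate 6 was the highest for Gla.

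Asah1, acid ceramidase, was higher in 7 of 8 kidneys at 5d than the sham mean. Its lowest, median and highest values were 53.9, 66.4 and 74.0 CPM in sham, 63.4, 76.5 and 86.7 CPM at 5d and 58.0, 75.1 and 82.2 CPM at 28d. The groups overlapped, though 6 of 8 kidneys at 5d were above every sham kidney. This gave a log2 fold change at 5d of 0.22 (SE 0.08, adjusted p = 0.444). The other sphingolipid genes did not reach an unadjusted p of 0.05 in any comparison. These were Hexa, the α subunit of hexosaminidase (45.3 ± 6.40 CPM in sham, 44.2 ± 2.77 at 28d), Smpd1, acid sphingomyelinase (89.7 ± 6.85 and 88.0 ± 8.17), and Arsa, which desulfates sulfatide (7.95 ± 1.75 and 6.28 ± 2.43).

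**Figure D3:**
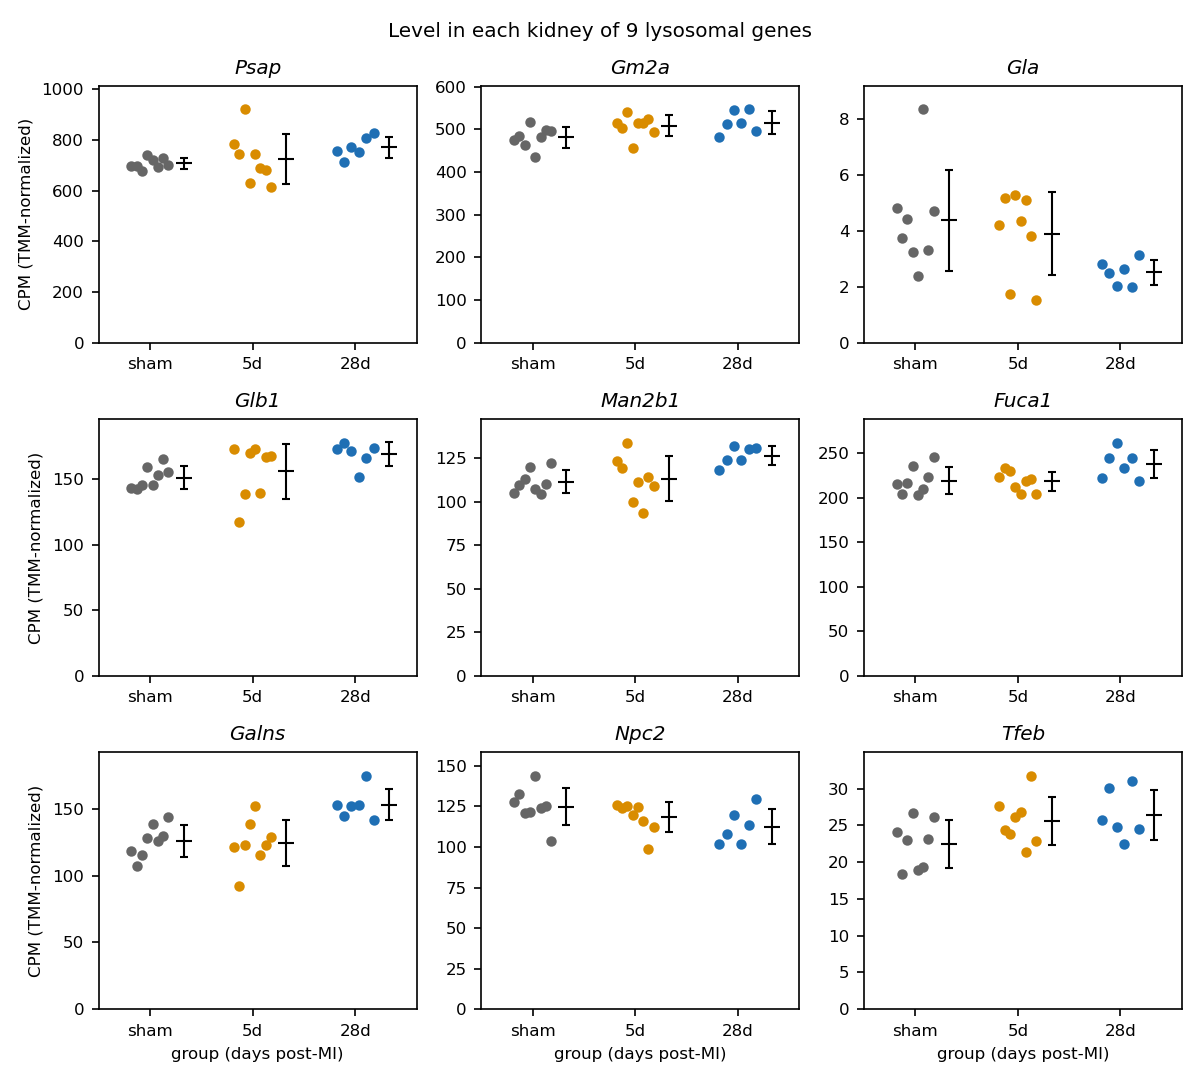
CPM in each kidney of the 9 lysosomal genes with an unadjusted p under 0.05 at 28d post-MI against sham, with each axis starting at 0 and bars beside the points showing mean and SD. The groups overlap for every gene, and for Psap, Glb1, Man2b1 and Galns 5 of 6 kidneys at 28d lie above every sham kidney.

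Glycan and glycosaminoglycan enzymes held the gene nearest to the threshold. Galns (chr8:122578242-122611463 in GENCODE M21) encodes a sulfatase that takes sulfate from keratan sulfate and chondroitin 6-sulfate. Its lowest, median and highest levels were 107, 127 and 144 CPM in sham, 92.0, 123 and 152 CPM at 5d and 142, 152 and 175 CPM at 28d. Values at 5d covered the sham range, and 5 of 6 kidneys at 28d were above every sham kidney. The log2 fold change was 0.28 (SE 0.08) at 28d against sham with an adjusted p-value of 0.213, and 0.30 (SE 0.08) between 28d and 5d with an adjusted p-value of 0.0667. It was called at 28d in a fit without the filter on low counts (adjusted p = 0.0144) and in one with only the sham and 28d kidneys (adjusted p = 0.0405). The adjusted p of edgeR at 28d without the kidneys with adrenal cortex genes was 0.465, so over the settings tried it ran from 0.0144 to 0.465. Between 28d and 5d Galns was called without the filter (adjusted p = 0.00299) and without 5d replicate 6, the highest kidney of its group (adjusted p = 0.0139), and its adjusted p ran from 0.00299 to 0.172. Without 5d replicate 2, the lowest kidney of that group, its log2 fold change between 28d and 5d was 0.25.

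Man2b1, the lysosomal α-mannosidase of N-glycan breakdown, had a lowest, median and highest level of 104, 110 and 122 CPM in sham, 93.3, 113 and 134 CPM at 5d and 118, 127 and 132 CPM at 28d. As with Galns, 5 of 6 kidneys at 28d were above every sham kidney. Its log2 fold change at 28d was 0.18 (SE 0.06, adjusted p = 0.369) and between 28d and 5d 0.16 (SE 0.06, adjusted p = 0.391). Fuca1, α-fucosidase, had a lowest, median and highest level of 203, 216 and 246 CPM in sham, 204, 219 and 234 CPM at 5d and 219, 239 and 262 CPM at 28d. All 6 kidneys at 28d were above its sham mean, and 1 was above every sham kidney. Fuca1 had a log2 fold change of 0.12 (SE 0.05, adjusted p = 0.538) at 28d and 0.12 (SE 0.05, adjusted p = 0.472) between 28d and 5d. Without the 3 kidneys with adrenal cortex genes, Galns and Man2b1 were the only lysosomal genes still at an unadjusted p under 0.05 at 28d. Of all tested genes 878 were at that p in this fit.

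Gusb, β-glucuronidase, differed mainly between the MI groups. Its lowest, median and highest levels were 33.7, 48.7 and 57.4 CPM in sham, 20.7, 44.5 and 55.5 CPM at 5d and 49.2, 56.0 and 67.5 CPM at 28d. One kidney at 5d (replicate 2) lay below every other kidney, and 1 at 28d (replicate 3) above every other. Between 28d and 5d the log2 fold change was 0.43 (SE 0.15, adjusted p = 0.321), and at 28d against sham 0.24 (SE 0.15, adjusted p = 0.698). Without 5d replicate 2 it was 0.32 between 28d and 5d. That kidney also had the lowest sum of proximal tubule markers (35667 CPM, against a 5d median of 56650 CPM), whose part was not tested. Neu1, the sialidase that is held stable by Ctsa, was the most abundant of the glycan enzymes. It had a lowest, median and highest level of 454, 524 and 615 CPM in sham, 404, 501 and 623 CPM at 5d and 454, 534 and 570 CPM at 28d, and its groups overlapped almost fully. The log2 fold changes of Neu1 were −0.01 (95% interval −0.19 to 0.16) at 28d and −0.06 (−0.22 to 0.10) at 5d.

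The other glycan enzymes did not reach an unadjusted p of 0.05 in any comparison. Gaa, acid α-glucosidase of glycogen breakdown, was at 69.0 ± 5.16 CPM in sham and 64.5 ± 6.25 at 28d. The heparan sulfate enzymes Naglu (63.6 ± 6.07 and 68.7 ± 7.40 CPM), Ids (49.8 ± 4.39 and 50.9 ± 6.92) and Sgsh (12.3 ± 1.55 and 11.9 ± 2.94) differed by less than their SDs. The same held for Arsb, which acts on dermatan sulfate (189 ± 14.9 and 193 ± 18.9 CPM), and for Manba, β-mannosidase (36.6 ± 3.58 and 36.0 ± 4.99). Idua, α-iduronidase (11.9 ± 2.42 and 12.6 ± 3.23 CPM), lies opposite Slc26a1, which had 666% of its counts, and as the strand setting of the counting is not given in the sources used here, its reads may not be its own.

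None of the 11 protease genes had an unadjusted p under 0.05 at 28d, where 8.68% of all genes did. At 5d, 2 were higher and 1 lower at that p (27.3%, against 7.9% of all genes). Lgmn, legumain, an asparaginyl endopeptidase abundant in the proximal tubule, had a lowest, median and highest level of 473, 505 and 598 CPM in sham, 505, 598 and 605 CPM at 5d and 466.03, 502 and 558 CPM at 28d. Levels in 4 of 8 kidneys at 5d were above every sham kidney, and those in 2 of 6 at 28d were below every one. Its log2 fold change was 0.14 (SE 0.05, adjusted p = 0.467) at 5d, −0.03 at 28d and −0.17 (SE 0.06, adjusted p = 0.253) between 28d and 5d. Ctsl, cathepsin L, a cysteine protease, was at 336 ± 28.4 CPM in sham, 363 ± 15.9 at 5d and 342 ± 24.9 at 28d, with a log2 fold change at 5d of 0.11 (SE 0.05, adjusted p = 0.593).

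Ctss, cathepsin S, is best known from macrophages and other antigen-presenting cells. The lowest, median and highest levels were 11.9, 13.6 and 18.03 CPM in sham, 8.25, 11.3 and 14.8 CPM at 5d and 8.97, 13.3 and 18.6 CPM at 28d. At 5d, 5 of 8 kidneys were below every sham kidney, while the kidneys at 28d spanned the whole sham range. At 5d the log2 fold change was −0.33 (SE 0.14, adjusted p = 0.564). Without the 3 kidneys with adrenal cortex genes, Ctss no longer had an unadjusted p under 0.05 at 5d. With all kidneys, 11 of 12 tested macrophage markers had a lower mean at 5d, 4 of them at an unadjusted p under 0.05, C1qa, C1qb, Lyz2 and Ptprc. Of all 12780 tested genes 6379 had a lower mean at 5d, and 3.97% were lower at that p. Their part in the Ctss value was not tested. Ctsc, cathepsin C, which activates serine proteases of leukocytes, had a lowest, median and highest level of 13.8, 17.3 and 24.7 CPM in sham, 14.3, 19.7 and 22 CPM at 5d and 9.14, 16.4 and 17.9 CPM at 28d. A pair of kidneys at 28d, replicates 2 and 6, lay well below all the others. For Ctsc the log2 fold change between 28d and 5d was −0.39 (SE 0.15, adjusted p = 0.366).

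Ctsd, cathepsin D, the main aspartic protease of lysosomes and the most abundant of the proteases here, had a lowest, median and highest level of 547, 622 and 672 CPM in sham, 559, 603 and 632 CPM at 5d and 581, 632 and 683 CPM at 28d. The groups overlapped, and the log2 fold change was 0.04 (95% interval −0.06 to 0.14) at 28d and −0.02 (−0.11 to 0.07) at 5d. Ctsb, cathepsin B, was at 413 ± 24.0 CPM in sham, 414 ± 25.6 at 5d and 402 ± 17.4 at 28d. Ctsh (190 ± 9.23 CPM in sham and 194 ± 8.27 at 28d), Ctsf (47.5 ± 6.61 and 47.5 ± 3.92), Ctsz (44.5 ± 4.29 and 44.4 ± 5.20), Ctsa (72.8 ± 6.48 and 72.4 ± 8.0) and the tripeptidyl peptidase Tpp1 (152 ± 7.66 and 158 ± 5.17) did not reach an unadjusted p of 0.05 in any comparison. Ctsz overlaps Nelfcd on the opposite strand, which had 35.2% of its counts.

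Of the lipid and cholesterol genes, 1 of 4 had an unadjusted p under 0.05 at 28d, where 8.68% of all genes did. Npc2, which takes up cholesterol inside the lysosome and hands it to Npc1, had a lowest, median and highest level of 103, 124 and 144 CPM in sham, 99.0, 122 and 126 CPM at 5d and 102, 111 and 129 CPM at 28d. All but 1 of the kidneys at 28d were below the sham mean, and the groups overlapped. At 28d its log2 fold change was −0.15 (SE 0.07, adjusted p = 0.532). Npc1, the membrane protein that exports this cholesterol, was at 18.5 ± 3.54 CPM in sham and 20.01 ± 1.44 at 28d. Lipa, lysosomal acid lipase, which splits cholesteryl esters and triglycerides, had a lowest, median and highest level of 121, 152 and 198 CPM in sham, 113, 145 and 193 CPM at 5d and 151, 160.4 and 174 CPM at 28d. The kidneys at 28d lay in the middle of the sham range, and the log2 fold change of Lipa was 0.03 (95% interval −0.19 to 0.25). Ppt1, which removes palmitate from proteins, was at 77.3 ± 5.17 CPM in sham and 81.9 ± 4.89 at 28d.

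The 6 membrane proteins had no gene at an unadjusted p under 0.05 in any comparison. Of all genes 8.68% were at that p at 28d, 7.9% at 5d and 9.05% between the times. Cd63, a tetraspanin of late endosomes, lysosomes and exosomes, was the most abundant of all 43 genes, with a lowest, median and highest level of 1618, 2055 and 2103 CPM in sham, 1765, 2061 and 2143 CPM at 5d and 1785, 1973 and 2262 CPM at 28d. The 3 groups covered nearly the same range. The log2 fold change of Cd63 was 0.04 (95% interval −0.08 to 0.16) at 28d and 0.04 (−0.07 to 0.15) at 5d. Lamp2, a major glycoprotein of the lysosomal membrane that also serves chaperone-mediated autophagy, was at 562 ± 18.6 CPM in sham, 562 ± 31.0 at 5d and 556 ± 21.5 at 28d, and its 95% interval at 28d ran from −0.11 to 0.07 on the log2 scale. Lamp1, its partner glycoprotein, was at 58.3 ± 7.27 CPM in sham and 64.0 ± 8.97 at 28d, but Grtp1 on the opposite strand overlaps it and had 100% of its counts. Scarb2, the receptor that carries glucocerebrosidase to the lysosome (43.5 ± 4.52 and 41.4 ± 4.12 CPM), Cln3 (17.0 ± 3.61 and 15.7 ± 3.84) and the cation channel Mcoln1 (38.9 ± 5.23 and 40.1 ± 6.002) differed by less than their SDs.

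Both regulators had a higher mean than sham at both times. Tfeb, the transcription factor that acts on the CLEAR element, was at 22.5 ± 3.22 CPM in sham, 25.6 ± 3.24 at 5d and 26.4 ± 3.38 at 28d, with a log2 fold change of 0.22 (SE 0.11, adjusted p = 0.565) at 28d and 0.17 (SE 0.10, adjusted p = 0.717) at 5d. The groups overlapped at both times. Progranulin (Grn), a secreted and lysosomal protein that binds prosaposin, had a lowest, median and highest level of 149, 164 and 199 CPM in sham, 166, 187 and 207 CPM at 5d and 173, 179 and 185 CPM at 28d. In 7 of 8 kidneys at 5d and in all 6 at 28d Grn was above the sham mean, and all kidneys at 28d lay within the sham range. Its log2 fold change was 0.14 (SE 0.05, adjusted p = 0.501) at 5d and 0.09 (SE 0.06, adjusted p = 0.687) at 28d.

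Other genes of the pathway, in lists that hold none of the 43, gave no called gene in any comparison, and, apart from the receptors given last, their shares at an unadjusted p under 0.05 at 28d lay between 5.88% and 14.3%, where that of all genes was 8.68%. The V-ATPase, the proton pump that acidifies lysosomes, had 2 of 22 subunit genes at an unadjusted p under 0.05 at 28d, Atp6v0c higher (log2 fold change 0.10, SE 0.05) and Atp6ap2 lower (−0.15, SE 0.06). Of 26 tested autophagy genes there were 2, the kinase Ulk2 higher (0.29, SE 0.11) and the phosphoinositide-binding Wipi1 lower (−0.27, SE 0.11). Of 14 genes that sort hydrolases to the lysosome there were 2, Gnptg, a subunit of the enzyme that makes the mannose 6-phosphate tag, higher (0.26, SE 0.13) and the cation-dependent mannose 6-phosphate receptor M6pr lower (−0.17, SE 0.06). A further list held 35 other tested lysosomal genes, hydrolases and cofactors with some membrane proteins. Of these there were 4, 3 higher and 1 lower, led by Plbd2 (0.24, SE 0.07, adjusted p = 0.267) and, in the other direction, by Mfsd8 (−0.46, SE 0.22). Of 17 tested genes of mTORC1 at the lysosome and of the TFEB family there was 1, Tfec, higher (0.46, SE 0.21) at a low level of 7.70 ± 2.94 CPM in sham. Median log2 fold changes of these lists at 28d lay between −0.01 and 0.05. At 28d 17 of 22 V-ATPase genes (77.3%) and 23 of 35 genes of the other lysosomal list (65.7%) had a higher mean. For autophagy it was 15 of 26, for sorting 8 of 14 and for mTORC1 8 of 17, against 49.6% of all genes. Summed CPM of the other lysosomal list, with 37 genes, was 2051 ± 32.1 in sham (at most 2080) and 2117 ± 41.7 at 28d (2051 to 2178). Neither direction nor sum was tested for these lists.

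At 5d the same lists held 1 V-ATPase, 2 autophagy, 2 sorting, 2 other lysosomal and 1 mTORC1 gene at an unadjusted p under 0.05, in shares of 4.55% to 14.3% against 7.9% of all genes. Among those with a lower mean, the lowest p was that of Vps35 of the retromer (log2 fold change −0.15, SE 0.06, adjusted p = 0.531). Between 28d and 5d the most such genes were again in the list of other lysosomal genes, 3 higher and 4 lower (20% against 9.05% of all genes). Of the receptors that take up prosaposin or progranulin, Sort1 was at 32.1 ± 5.21 CPM in sham and 30.5 ± 4.84 at 28d. Lrp1 was at 44.3 ± 4.51 CPM in sham, 38.2 ± 7.27 at 5d and 41.5 ± 4.91 at 28d, and had an unadjusted p under 0.05 at 5d (log2 fold change −0.20, SE 0.09, adjusted p = 0.591). Gpr37 and Gpr37l1, described as receptors for prosaposin-derived peptides, had means of at most 0.261 CPM in any group and were not tested.

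Whether other genes varied with Psap from kidney to kidney was described by Pearson's r between deviations of log2 CPM from the group means. It is a description over 22 kidneys, whose values share a library and its depth. Over the other 42 lysosomal genes the median r with Psap was 0.08, with 29 above 0, where the median of all tested genes was 0.0066 with 50.9% above 0. Within the groups the median r of the 42 was 0.29 over the 8 sham kidneys, 0.03 over the 8 at 5d and 0.07 over the 6 at 28d. The highest were Man2b1 with r = 0.69, Neu1 with 0.63 and Ctsa, the protective protein that forms a complex with Neu1 and Glb1, with 0.56. The lowest were Npc1 with −0.42 and Cd63 with −0.44. Galns, the gene nearest to the threshold at 28d, was at −0.06 and Glb1 was at −0.25.

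A single kidney carried part of this pattern. Ctsa in the kidneys at 5d was highest in replicate 3 (98.1 CPM, the others at most 78.3 CPM), the same kidney in which Psap (920 CPM), Neu1 (623 CPM) and Man2b1 (134 CPM) were highest in that group. Without it r fell to 0.22 for Ctsa, 0.53 for Man2b1 and 0.49 for Neu1. Between any 2 of the 43 genes the median r was 0.04 over 903 pairs, with 57.3% above 0. The 5 tested genes most like Psap were Ptpa (r = 0.79), Gm10231 (0.79), Aig1 (0.77), Klhdc7a (0.77) and Dpysl3 (0.76), none of them in the lists used here. Man2b1 was at rank 11 of the 12780 tested genes by r, Neu1 at rank 32 and Ctsa at rank 116.

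**Figure D4:**
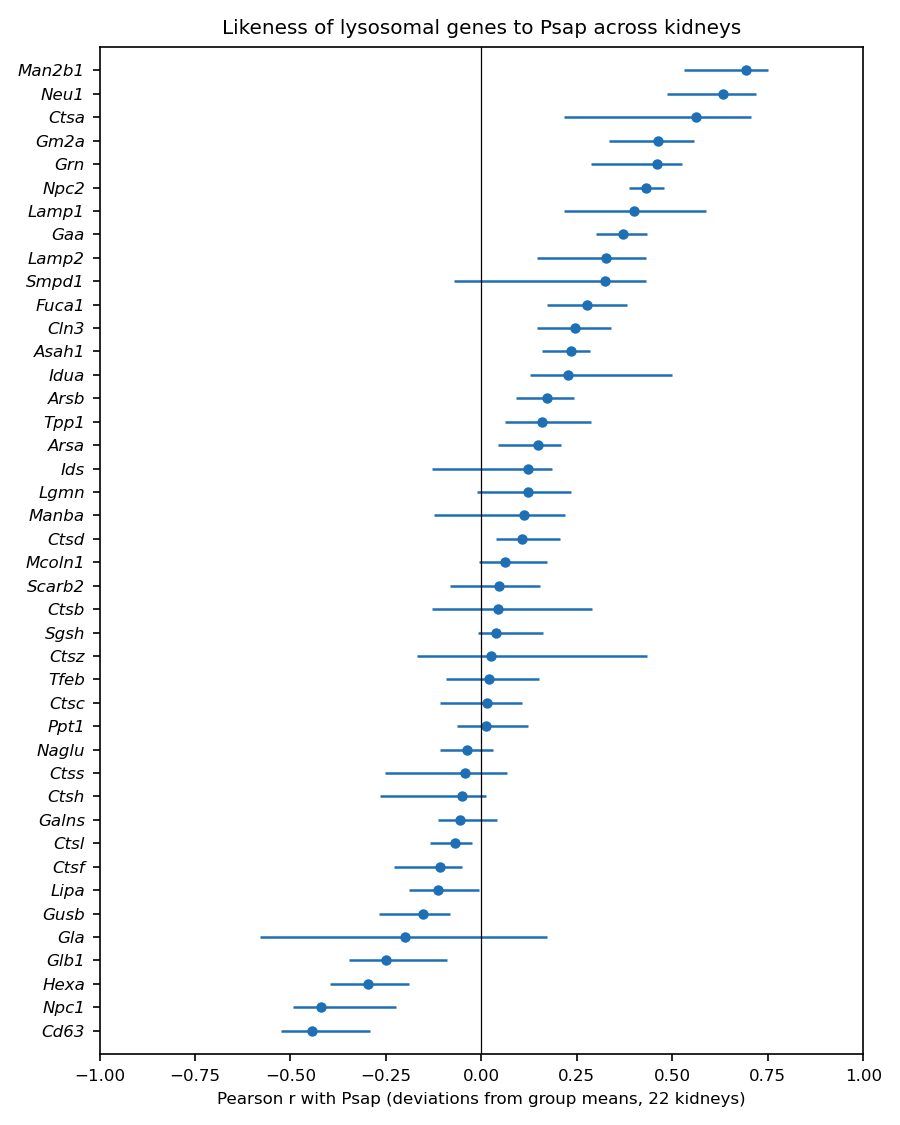
Pearson's r with Psap of the other 42 lysosomal genes across 22 kidneys, computed on deviations from group means, where points use all kidneys and bars span the values obtained by leaving out each kidney in turn. Values run from −0.44 (Cd63) to 0.69 (Man2b1) around a median of 0.08, and the bar of Ctsa reaches down to 0.22.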

How the data were processed

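Kidney RNA was sequenced by MACE with unique molecular identifiers. The authors state that reads were trimmed with Cutadapt 4.6, mapped to mm10 and counted with HTSeq, whereas the submitters' processing notes name mm39 and Bowtie2, so the build of the mapping is unsettled and coordinates are those of GENCODE M21 or RefSeq on GRCm38.p6. The deposited table holds the authors' raw counts per gene and kidney without normalization, and values that the authors named tpm, which are CPM of each kidney's own total (within 5e-06) and were not divided by gene length. Of 48 columns of values, 4 belong to 2 kidneys that share a column name, 1 at 5d and 1 at 28d post-MI. These were not assignable and were left out, which leaves 22 of 24 kidneys. No pair of kidneys within a group was alike enough to be 1 library. A count of 0 allows a true level of up to 3 counts, by counting error alone.

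Counts were fitted in R 4.3.3 with edgeR 4.0.16 (robust quasi-likelihood, TMM, filterByExpr with a minimum of 10 counts, 3 groups, no covariate, two-sided tests, Benjamini-Hochberg adjustment over 12780 genes). DESeq2 1.42.0, limma 3.58.1, RLE and total-count scaling, no filter, a fit of only 2 groups, a replicate block, omission of 3 kidneys with adrenal cortex genes (over 10 times the median) and of each kidney in turn were alternatives. Levels are TMM-normalized CPM, and log2 CPM used a prior count of 2. Standard errors were derived from the F statistic (estimate over root F). Promoters were searched in Python 3.11.15. Replicate numbers do not pair the kidneys (mean r of same-numbered kidneys 0.0053). The members, gene lists and tests were chosen with earlier results of these data known. Values per kidney are given for Psap, for the 12 other genes with the lowest unadjusted p under 0.05 in any comparison and for the most abundant gene of each role. The 5 genes most like Psap and, in each pathway list at 28d, the gene with the lowest p in each direction are named.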

Additional observations from a re-analysis of the deposited data

Results flagged for a closer look

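In 132 groups of values (43 genes and their sum in 3 groups), 11 had 1 kidney that stood far from the others of its group by Dixon's criterion, which chance alone gives in about 1 of 20 groups. The highest kidneys were sham replicate 6 for Gla (8.34 CPM, next 4.82), sham replicate 1 for Ctsc (24.7 CPM, next 18.6), sham replicate 4 for Gaa (80.6 CPM, next 69.4), 5d replicate 3 for Ctsa (98.1 CPM, next 78.3), 5d replicate 2 for Tpp1 (170.4 CPM, next 160.4) and 28d replicate 6 for Galns (174.8 CPM, next 152.9). The lowest kidneys were sham replicate 3 for Scarb2 (33.6 CPM, next 41.1), 5d replicate 6 for Ctsl (327.9 CPM, next 354.6), 5d replicate 3 for Npc1 (15.4 CPM, next 18.2), 28d replicate 2 for Ctsh (177.6 CPM, next 194.8) and 28d replicate 6 for Lamp2 (513.7 CPM, next 556.0). Sham replicate 6 also held adrenal cortex genes (552 CPM), and 5d replicate 3 had the highest Psap of all kidneys.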

How the results depend on the processing

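No lysosomal gene was called at 5d under any setting. Galns was the 1 gene called elsewhere, at 28d without the filter, with only the 2 groups compared and with a replicate block (1 gene each), and between 28d and 5d without the filter, with the block and without 5d replicate 6 (1 gene each, range 0 to 1 over omitted kidneys, and 0 to 0 at 28d). With the replicate block, whose numbers do not pair the kidneys, Psap was at 0.10 at 28d, 0.07 at 5d and 0.03 between 28d and 5d (0.09 without the block), and all tested genes called numbered 24 at 28d (3 without the block). All genes called at 28d numbered 30 by DESeq2 and 94 without the filter. Lysosomal genes with an unadjusted p under 0.05 at 28d numbered 5 when scaled to total counts (2 higher, 3 lower), where all genes at that p numbered 1223. They numbered 2 without the kidneys with adrenal cortex genes, where all genes numbered 878 (1109 in the main fit). Over omitted kidneys they numbered 5 to 12 (5 without sham replicate 2, 5 or 6 each, 12 without sham replicate 4). At 5d the lysosomal genes at that p numbered 3 without the adrenal kidneys, where all genes numbered 828. Over omitted kidneys they numbered 3 to 7 at 5d (3 without sham replicate 2 or 5d replicate 9), and between 28d and 5d 4 to 8 (4 without 28d replicate 2). Over omitted kidneys the median of the 43 genes ran from 0.0039 to 0.05 at 28d, 0.0064 to 0.04 at 5d and −0.01 to 0.01 between the times. Psap ran from 0.10 to 0.15 at 28d, −0.018 to 0.070 at 5d (−0.018 without 5d replicate 3) and 0.06 to 0.14 between the times. Values near 0 changed sign for Ctsd at 28d (−0.0023) and Lipa at 28d (−0.011, and −0.019 to 0.084 over omitted kidneys) when scaled to total counts, for Neu1 at 28d over omitted kidneys (−0.042 to 0.021), for Neu1 at 5d with the replicate block (0.015) and for Cd63 at 5d without the adrenal kidneys (−0.0079). For the fold changes given in the text for genes other than Psap, 854 of 869 values under an alternative kept their direction and their side of the threshold. The cause was not tested for any of these. The depth of 2280618 to 3786275 counts left genes such as Gla, with 241 counts in all, with wide intervals.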
